A study of Homo sapiens with 4 samples.

Results

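Transcripts of the epidermal growth factor receptor (EGFR) family and its ligands were followed in DU145, an established prostate cancer cell line, after knockdown of TAZ. The set held 8 of the 19871 genes of the table, chosen by name: the receptors EGFR, ERBB2 and ERBB3, and the ligands AREG, EREG, HBEGF, TGFA and BTC. All 8 had a row and passed the filter on low values. RNA-seq was carried out on 2 libraries from TAZ knockdown cells (shTAZ 1 and shTAZ 2) and 2 from control cells (pLKO 1 and pLKO 2), which carried the lentiviral hairpin vector pLKO. By its title, the series sought the genes that TAZ controls in prostate cancer cells. Both groups were DU145 cells grown in medium with 10% serum. Per the series, the knockdown used 2 independent TAZ hairpins, but the labels tie no hairpin to a library. They also do not state that replicates were separate cultures, so p-values rest on a spread between libraries that may be technical. Within shTAZ, a difference between hairpins cannot be told apart from that spread.

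EGFR, ERBB2 and ERBB3 are receptors of the cell surface that pair with each other when a ligand binds and then pass signals to the RAS-ERK and PI3K-AKT pathways. ERBB2 has no known ligand of its own, and ERBB3 has a weak kinase and works through its partners. The ligands of the set are made as membrane-anchored precursors and are released by sheddases such as ADAM17. Amphiregulin (AREG) and TGF-alpha (TGFA) bind EGFR, while epiregulin (EREG), HB-EGF (HBEGF) and betacellulin (BTC) bind EGFR and also ERBB4. Prostate epithelial and cancer cells can make several of these ligands and respond to them in an autocrine way. TAZ acts in the nucleus with TEAD factors to turn on transcription and is restrained by the Hippo kinases, and AREG is a known target of its paralog YAP1 in mammary epithelial cells.

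The recovered depth was 14814918 and 12078623 reads in shTAZ 1 and shTAZ 2, and 13681392 and 11687727 reads in pLKO 1 and pLKO 2. WWTR1, the gene that encodes TAZ, had 839 and 719 normalized counts in shTAZ 1 and shTAZ 2, against 2508 and 3626 in pLKO 1 and pLKO 2. It fell to 25.4% of pLKO (limma adjusted p = 0.0086). All 5 epithelial markers looked for were present, and some lay apart between the groups without passing limma. KRT8 had 14618 and 8485 normalized counts in shTAZ 1 and shTAZ 2, against 18494 and 24944 in pLKO 1 and pLKO 2, and KRT18 also lay below both pLKO libraries. EPCAM had 709 and 1061 in shTAZ 1 and shTAZ 2, against 520 and 661 in pLKO 1 and pLKO 2, and CDH1 also lay above both, while KRT19 overlapped. The median log2 fold change of the 5 was -0.26. Of the marker lists below, CD3E, DCN and LUM were not analysed here. Summed normalized counts of 4 leukocyte markers were 6.25 to 15.1 in shTAZ and 16.1 to 29.7 in pLKO, with PTPRC and LYZ at 0 in 3 libraries. Those of 4 endothelial markers were 4.17 to 7.97 in shTAZ and 9.28 to 23.0 in pLKO, with PECAM1 at 0 in 1 library. Those of 3 fibroblast markers were 154 to 169 in shTAZ and 52.9 to 104 in pLKO, most of it COL1A1. The sums lay apart between the groups, but not every marker did. Among the fibroblast markers only COL1A1 lay apart, while COL1A2 and PDGFRB overlapped, as did KDR among the endothelial markers. The leukocyte and endothelial sums rest on few reads. The part of these markers in the results was not tested. Differences in bulk RNA cannot tell fewer cells with a transcript from less of it per cell.

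No receptor or ligand of the set passed the test. Of the 8 genes, 0 reached a limma adjusted p under 0.05, against 0.0113% of all 17737 genes tested, and 0 passed edgeR, DESeq2 or limma-voom on the recovered reads, which called 0.0564% of 17737 genes, 0.542% of the 12551 genes with an adjusted p and 0.0113% of 17737 genes in that order. In the authors' deposited table, which called 0.537% of its genes with an adjusted p, the adjusted p of the 8 was 0.298 to 0.9997. At an unadjusted limma p under 0.05, 4 of the 8 were higher (BTC, TGFA, EGFR and AREG), against 4.33% of all genes, and 0 were lower, against 2.72%. The 4 became 3 after correction for transcript length and GC content. In that fit 858 of 14580 genes had an unadjusted p under 0.05 in either direction. The count was 5 with limma-voom (1283 of 17737 genes) and 5 with a replicate block (1150 of 17737 genes). Leaving out 1 library lowered the log2 fold change of EGFR and of AREG to as little as 0.38. Read library by library, 5 of 8 stood above both pLKO libraries in both shTAZ libraries (BTC, AREG, TGFA, EGFR and HBEGF), against 18.4% of all genes, and 0 stood below, against 19.0%. The median log2 fold change of the 8 was 0.59, against -0.01 over all genes tested. The 8 genes, and the pathway lists below, were chosen with earlier results of these data known. Their contrasts with all genes therefore only describe the values. With 2 libraries a group, an exact two-sided permutation test of a single gene cannot give a p below 0.333.

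**Figure D1:**
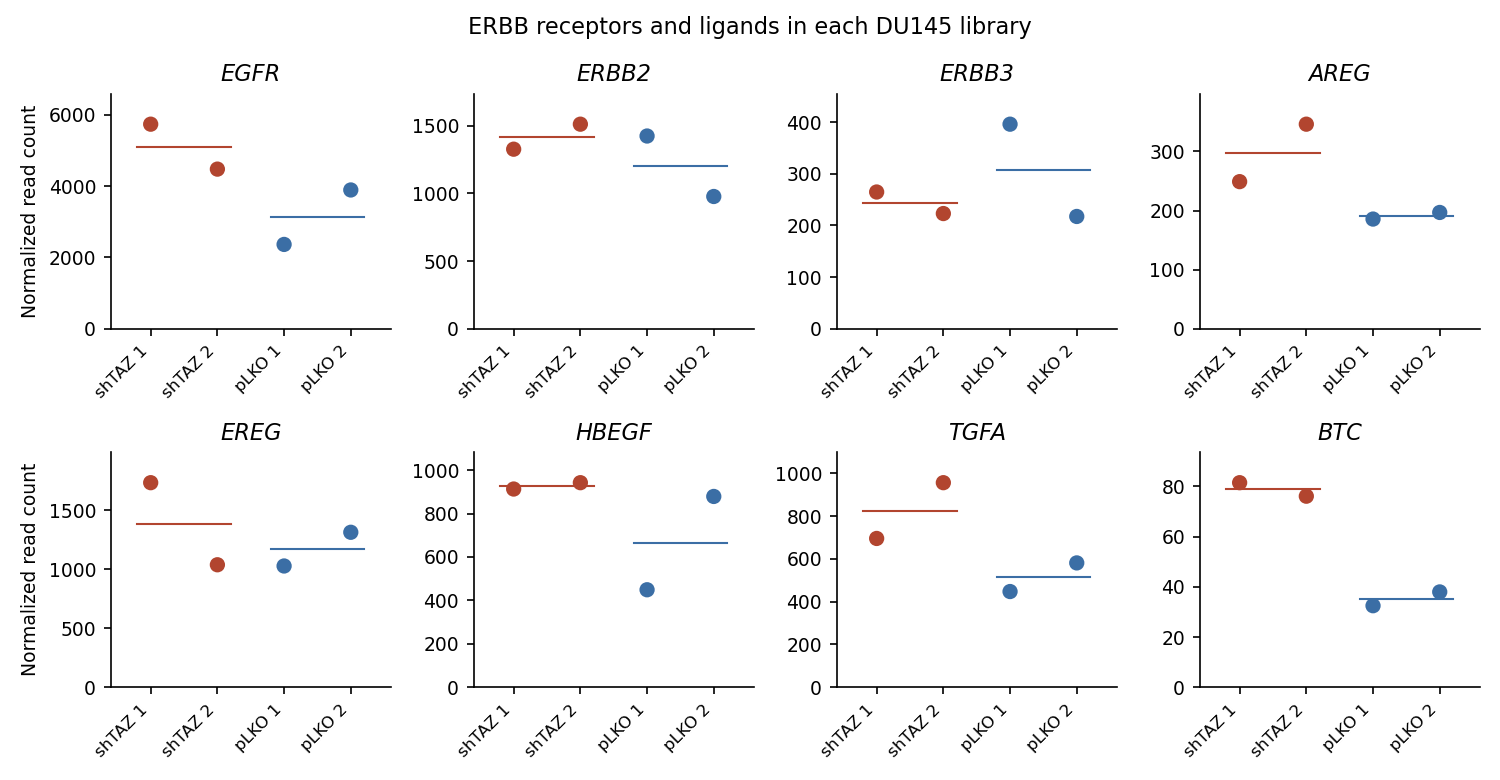
Normalized read count (linear axis from 0) of each receptor and ligand in the 4 libraries, red for shTAZ and blue for pLKO, with a line at each group's mean. BTC sat at 76.1 and above in shTAZ and at 38.0 and below in pLKO, whereas the groups overlapped for ERBB2, ERBB3 and EREG.

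Of the 8 genes, 7 had a promoter sequence from RefSeq (GRCh38.p14), each running from 250 bases before to 50 bases after an annotated start. The files were made on hg19, so these positions serve only to identify the sequences. EREG, AREG and BTC, together with the related ligand gene EPGN, are consecutive protein-coding genes on chromosome 4. Promoters were searched on both strands for the core TEAD motif GGAATG, which reads CATTCC on the other strand, the AP-1 motif TGANTCA and the cyclic AMP response element TGACGTCA, motifs that do not contain one another. Of 35116 promoters of this length, 14.0%, 7.71% and 1.85% held a match to TEAD, AP-1 and the cyclic AMP element in that order. Printed here are the BTC promoter, as the gene with the largest fold change, and the ligand promoters with a match, in lower case with matches in capitals. The BTC promoter (chr4:74794474-74794773, minus strand) held no match, and neither did those of TGFA, HBEGF and the upstream EGFR start. AREG (chr4:74444886-74445185, plus strand) held a cyclic AMP element from base 186 of the 300. EREG (chr4:74364895-74365194, plus strand) held a TEAD match from base 76. A downstream EGFR start (chr7:55109589-55109888, plus strand), also shown, held 1 TEAD and 2 AP-1 matches, and the counts per gene do not tell which start was used. ERBB2 held 1 AP-1 match, TGATTCA, which rests on the N of the motif being taken as any base. A match describes the letters only, and binding was not measured.
BTC: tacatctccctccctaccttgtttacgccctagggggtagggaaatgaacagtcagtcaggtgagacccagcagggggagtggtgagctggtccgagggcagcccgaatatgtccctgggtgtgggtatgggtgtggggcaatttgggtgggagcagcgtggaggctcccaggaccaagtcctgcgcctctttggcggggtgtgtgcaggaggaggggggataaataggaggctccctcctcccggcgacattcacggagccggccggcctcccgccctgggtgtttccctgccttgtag
AREG: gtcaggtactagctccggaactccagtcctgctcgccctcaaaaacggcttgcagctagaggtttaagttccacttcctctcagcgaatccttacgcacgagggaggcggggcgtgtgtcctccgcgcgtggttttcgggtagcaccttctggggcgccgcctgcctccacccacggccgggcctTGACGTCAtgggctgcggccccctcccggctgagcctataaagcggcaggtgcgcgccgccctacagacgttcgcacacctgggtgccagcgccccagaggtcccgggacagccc
EREG: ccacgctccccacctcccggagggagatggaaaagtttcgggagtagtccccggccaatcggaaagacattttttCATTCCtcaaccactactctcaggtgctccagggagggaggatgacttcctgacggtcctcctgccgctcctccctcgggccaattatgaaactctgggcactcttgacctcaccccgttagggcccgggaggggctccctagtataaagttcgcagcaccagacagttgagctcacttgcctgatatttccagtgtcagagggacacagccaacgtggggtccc
EGFR downstream start: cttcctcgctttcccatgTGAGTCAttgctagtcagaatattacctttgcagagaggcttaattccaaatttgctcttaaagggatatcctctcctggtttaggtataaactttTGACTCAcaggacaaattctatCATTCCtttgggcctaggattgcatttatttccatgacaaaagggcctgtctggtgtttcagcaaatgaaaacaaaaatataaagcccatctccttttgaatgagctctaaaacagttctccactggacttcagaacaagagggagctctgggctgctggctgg

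Among the receptors, EGFR had the most normalized counts in all 4 libraries, though not per length in pLKO 1, and stood higher in both shTAZ libraries. It had 5733 and 4473 normalized counts in shTAZ 1 and shTAZ 2, against 2363 and 3889 in pLKO 1 and pLKO 2. The lower shTAZ value exceeded the higher pLKO value by 15.0%, while pLKO 2 exceeded pLKO 1 by 0.72 on the log2 scale. Group means were 5103 ± 891 in shTAZ and 3126 ± 1079 in pLKO (SD, n = 2 each), a ratio of 1.63, and the log2 fold change was 0.74 ± 0.23 (SE; 95% interval 0.23 to 1.25) with a limma adjusted p of 0.595. About as large a difference thus separated the pLKO libraries from each other, and without pLKO 1 the log2 fold change was 0.38. The antisense transcript EGFR-AS1 overlaps EGFR, and the library kit as described does not mark strand. EGFR-AS1 had 24.8 and 15.6 normalized counts in shTAZ and 3.71 and 19.6 in pLKO, a small level beside that of EGFR.

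ERBB2, the receptor that serves as preferred partner of the others, had 1327 and 1512 normalized counts in shTAZ 1 and shTAZ 2, against 1425 and 978 in pLKO 1 and pLKO 2. The groups overlapped, with pLKO 1 above shTAZ 1. Its log2 fold change was 0.26 ± 0.20 (SE; 95% interval -0.18 to 0.70; limma adjusted p = 0.811), and -0.01 without pLKO 2. ERBB3, which couples to the PI3K-AKT pathway, had 265 and 223 normalized counts in shTAZ 1 and shTAZ 2, against 396 and 217 in pLKO 1 and pLKO 2. Only pLKO 1 stood apart, and the other 3 libraries lay between 217 and 265. The log2 fold change of ERBB3 was -0.27 ± 0.28 (SE; 95% interval -0.88 to 0.34; limma adjusted p = 0.868), and 0.16 without pLKO 1. ERBB3 was the one gene of the set with a lower mean in shTAZ.

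BTC showed the widest separation of the groups among the 8 genes, at a low level. It had 81.5 and 76.1 normalized counts in shTAZ 1 and shTAZ 2, against 32.5 and 38.0 in pLKO 1 and pLKO 2. These values rest on 92 and 73 reads in shTAZ and 35 and 33 reads in pLKO. The lower shTAZ value stood 100.4% above the higher pLKO value, and the libraries of each group lay close together. Means were 78.8 ± 3.81 in shTAZ and 35.2 ± 3.88 in pLKO (SD, n = 2 each), 2.24-fold, and the log2 fold change was 1.14 ± 0.32 (SE; 95% interval 0.43 to 1.85; limma adjusted p = 0.528). Leaving out any 1 library kept the log2 fold change between 1.03 and 1.25.

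TGFA, a ligand of EGFR alone, had 695 and 956 normalized counts in shTAZ 1 and shTAZ 2, against 447 and 581 in pLKO 1 and pLKO 2. Both shTAZ libraries were higher, the closest pair being shTAZ 1 and pLKO 2, with a gap of 19.7%. Means were 825 ± 184 in shTAZ and 514 ± 94.6 in pLKO (SD, n = 2 each), a ratio of 1.61, and the log2 fold change was 0.68 ± 0.21 (SE; limma adjusted p = 0.595). Without shTAZ 2 it was 0.45.

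AREG, the low-affinity EGFR ligand amphiregulin, had 249 and 346 normalized counts in shTAZ 1 and shTAZ 2, against 186 and 197 in pLKO 1 and pLKO 2. The pLKO libraries lay close together and both shTAZ libraries stood above them, shTAZ 2 by more. Means were 297 ± 68.7 in shTAZ and 191 ± 7.89 in pLKO (SD, n = 2 each), a ratio of 1.56, and the log2 fold change was 0.62 ± 0.23 (SE; limma adjusted p = 0.658), or 0.38 without shTAZ 2. The hg19 assembly carries a near-identical copy of AREG, AREGB, and no source used here says how reads matching both were counted, so the level of AREG is uncertain.

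HBEGF, which encodes a heparin-binding ligand, had 913 and 942 normalized counts in shTAZ 1 and shTAZ 2, against 449 and 879 in pLKO 1 and pLKO 2. The shTAZ libraries were nearly level with pLKO 2, the smaller exceeding it by 3.89%, and pLKO 1 alone was low. Means were 928 ± 20.7 in shTAZ and 664 ± 304 in pLKO (SD, n = 2 each), a ratio of 1.40, and the log2 fold change was 0.56 ± 0.27 (SE; limma adjusted p = 0.714). Without pLKO 1 the log2 fold change was 0.08, so its size rested on that library.

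EREG, the ligand epiregulin, had 1736 and 1039 normalized counts in shTAZ 1 and shTAZ 2, against 1029 and 1315 in pLKO 1 and pLKO 2. Only shTAZ 1 stood apart, and shTAZ 2 lay between the pLKO libraries. The log2 fold change was 0.21 ± 0.24 (SE; 95% interval -0.31 to 0.73; limma adjusted p = 0.889), and -0.16 without shTAZ 1, 0.58 without shTAZ 2 and 0.03 without pLKO 1. After correction of each library for transcript length and GC content it was 0.06. EREG and AREG, neighbours on chromosome 4, thus differed in which shTAZ library was higher, shTAZ 1 for EREG and shTAZ 2 for AREG.

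**Figure D2:**
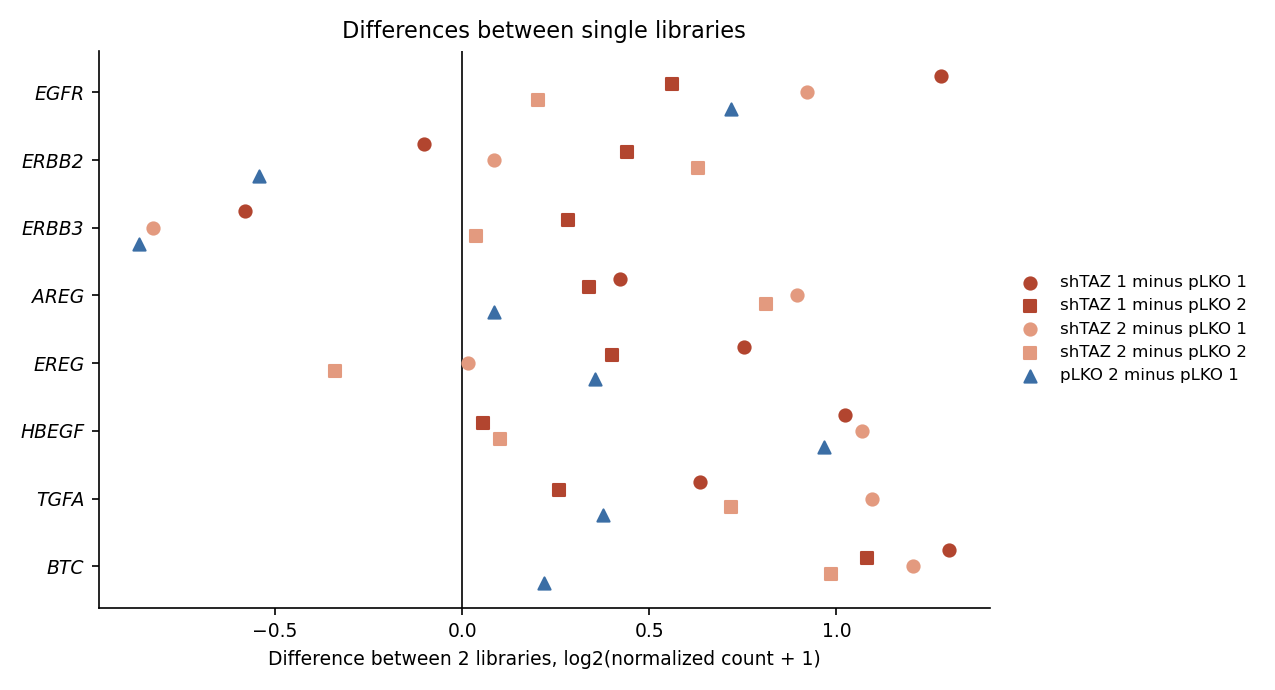
Difference in log2(normalized count + 1) between single libraries, for each shTAZ library minus each pLKO library (red, circles against pLKO 1 and squares against pLKO 2) and for pLKO 2 minus pLKO 1 (blue triangles). The 4 red symbols of BTC lay at 0.98 to 1.30, while for HBEGF the 2 squares lay at 0.05 and 0.10 and the triangle at 0.97.

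The pLKO libraries differed from each other in several genes of the set. Relative to pLKO 1, pLKO 2 was higher in 6 of 8 genes and lower in ERBB2 and ERBB3, with a median log2 difference of 0.29, against 0.01 over all genes tested. Of the 8 genes, 8 were higher in shTAZ 1 than in pLKO 2 and 7 were higher in shTAZ 2 than in pLKO 2, the exception being EREG. Against pLKO 1, 6 were higher in shTAZ 1 and 7 in shTAZ 2, the exceptions being ERBB3 in both and ERBB2 in shTAZ 1. The median log2 difference was 0.37 and 0.42 from pLKO 2, and 0.69 and 0.91 from pLKO 1, in shTAZ 1 and shTAZ 2. Over all genes tested, 48.3 to 49.4% were higher in the shTAZ library of these 4 pairs. These pairs share libraries and are not independent. Between the shTAZ libraries, 4 genes were higher in shTAZ 2 and 4 lower, from -0.74 for EREG to 0.47 for AREG on the log2 scale.

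To compare genes, levels were divided by the length of the longest protein-coding transcript of GENCODE 29, which is an approximation since the isoforms used are not known. In normalized counts per kilobase, averaged over the 4 libraries, the order was EGFR (419), HBEGF (333), EREG (277), ERBB2 (273), AREG (197), TGFA (155), ERBB3 (46.5) and BTC (20.2). The ranges over libraries of neighbouring genes overlapped from EGFR down to TGFA, whereas TGFA stood clear of ERBB3, and ERBB3 of BTC. EGFR nevertheless exceeded HBEGF in 4 of 4 libraries, and AREG exceeded TGFA in 4 of 4, while EREG exceeded ERBB2 in 2 of 4. The place of AREG in this order is uncertain, given its near-identical copy AREGB. The ratio of EGFR to ERBB2 per kilobase was 2.11 and 1.44 in shTAZ 1 and shTAZ 2, against 0.809 and 1.94 in pLKO 1 and pLKO 2. ERBB2 thus led EGFR in pLKO 1 alone.

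The 5 ligands summed to 1149 and 1148 normalized counts per kilobase in shTAZ 1 and shTAZ 2, against 676 and 960 in pLKO 1 and pLKO 2. The shTAZ libraries agreed closely in the sum but not in its makeup. EREG made up 32.7 and 19.6% of the sum in shTAZ 1 and shTAZ 2, against 33.0 and 29.7% in pLKO 1 and pLKO 2. AREG made up 17.5 and 24.3% in shTAZ 1 and shTAZ 2, against 22.1 and 16.5% in pLKO 1 and pLKO 2. The uncertain level of AREG carries into the sums and the shares. HBEGF held 33.3 and 34.4% in shTAZ 1 and shTAZ 2, against 27.8 and 38.4% in pLKO 1 and pLKO 2. BTC, at 2.52 and 2.35% in shTAZ and 1.71 and 1.40% in pLKO, added little to the sum. The receptors summed to 905 and 809 normalized counts per kilobase in shTAZ 1 and shTAZ 2, against 605 and 637 in pLKO 1 and pLKO 2.

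**Figure D3:**
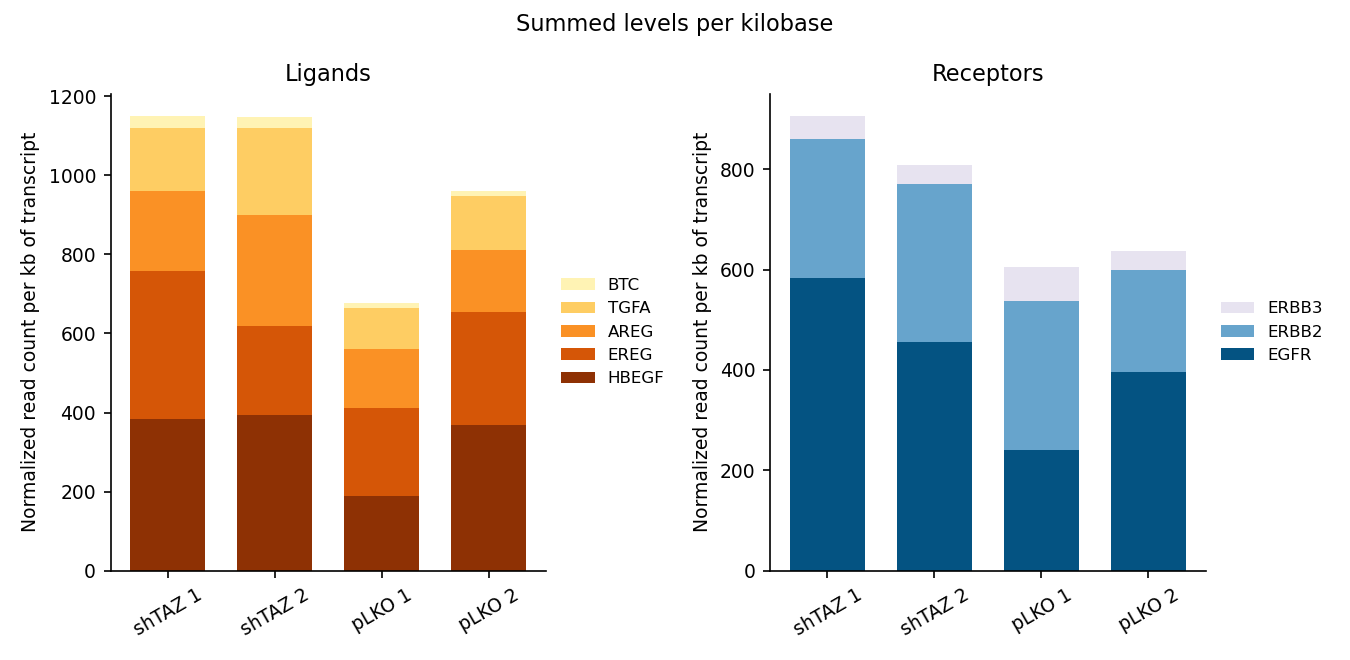
Normalized read count per kilobase of the longest protein-coding transcript, stacked over the 5 ligands (left) and the 3 receptors (right) in each library. The ligand sums of shTAZ 1 and shTAZ 2 were 1149 and 1148, with EREG the larger part in shTAZ 1 and AREG the larger part in shTAZ 2 relative to each other.

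Other genes of the pathway were taken in 7 lists of 67 genes, of which 64 were tested, and 0 passed limma over all genes (8 higher and 1 lower at an unadjusted p under 0.05, against 4.33% and 2.72% of all genes). The 8 and 1 became 4 and 2 after correction for length and GC content. In that fit 858 of 14580 genes had an unadjusted p under 0.05 in either direction. edgeR, DESeq2 and limma-voom also called 0 of the 64. List medians without single libraries are given with each list. Beside the counts per list that follow, 18.4% of all genes tested stood above and 19.0% below both pLKO libraries in both shTAZ libraries. Among the other receptors and ligands, 3 of 5 tested genes stood above both pLKO libraries in both shTAZ libraries, against 18.4% of all genes. All 3 were at low levels. The median log2 fold change of the 5 was 0.72, the value of NRG4, whose groups overlapped. NRG4 had 27.5 and 45.9 normalized counts in shTAZ 1 and shTAZ 2, against 38.0 and 11.5 in pLKO 1 and pLKO 2. NRG1, a neuregulin that binds ERBB3 and ERBB4, had 29.2 and 60.5 normalized counts in shTAZ 1 and shTAZ 2, against 14.8 and 19.6 in pLKO 1 and pLKO 2 (limma adjusted p = 0.650). EPGN, the EGFR ligand epigen, had 7.08 and 14.6 in shTAZ 1 and shTAZ 2, against 1.86 and 5.75 in pLKO 1 and pLKO 2 (limma adjusted p = 0.714), or 8 and 14 reads against 2 and 5. Both were highest in shTAZ 2. ERBB4, the receptor shared by several of these ligands, had 0 to 3.54 normalized counts and was not tested, and NRG3 was not analysed here. The list's median was 0.25 without pLKO 2, 0.37 without shTAZ 2 and 1.08 without shTAZ 1.

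The sheddase list had a median log2 fold change of 0.04, with 1 of 6 genes above both pLKO libraries in both shTAZ libraries. That gene was ADAM10, a membrane protease that releases betacellulin and other ligands, at 1641 and 1479 normalized counts in shTAZ 1 and shTAZ 2, against 1288 and 1456 in pLKO 1 and pLKO 2 (limma adjusted p = 0.849). RHBDF2, which carries ADAM17 to the cell surface, had 1009 and 786 in shTAZ 1 and shTAZ 2, against 974 and 975 in pLKO 1 and pLKO 2 (limma adjusted p = 0.912). The list's median was -0.09 without shTAZ 1, -0.05 without pLKO 2, 0.16 without shTAZ 2 and -0.08 after correction for length and GC content, so it had no settled direction.

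The list of receptor brakes and turnover genes had a median of 0.27, the value of CBLB, whose groups overlapped. Of its 11 genes, 10 were higher in the mean, against 8684 of 17737 over all genes tested. Above both pLKO libraries in both shTAZ libraries stood 5 of them, against 18.4%. CBL, a ubiquitin ligase that marks activated EGFR for degradation, had 1986 and 2375 normalized counts in shTAZ 1 and shTAZ 2, against 1418 and 1761 in pLKO 1 and pLKO 2 (limma adjusted p = 0.685). SOCS4, which also promotes EGFR turnover, had 762 and 880 in shTAZ 1 and shTAZ 2, against 516 and 669 in pLKO 1 and pLKO 2 (limma adjusted p = 0.685). In both genes every shTAZ value exceeded every pLKO value. The list's median was 0.10 after correction for length and GC content and 0.05 without shTAZ 1.

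The adaptor list had a median of -0.09, and 0.02 without pLKO 1, with 1 of 8 genes above and 3 below both pLKO libraries. GRB7, an adaptor of ERBB2 and ERBB3, had 100.1 and 138 normalized counts in shTAZ 1 and shTAZ 2, against 299 and 179 in pLKO 1 and pLKO 2, and a log2 fold change of -0.97 ± 0.29 (SE; limma adjusted p = 0.567). SOS2, an exchange factor that activates RAS, had 922 and 1178 in shTAZ 1 and shTAZ 2, against 823 and 806 in pLKO 1 and pLKO 2 (limma adjusted p = 0.714). The kinases of the RAS-RAF-MEK-ERK cascade had a median of 0.01, with 0 of 10 above and 3 below both pLKO libraries. MAP2K2, the kinase MEK2, had 2121 and 2081 in shTAZ 1 and shTAZ 2, against 2454 and 2577 in pLKO 1 and pLKO 2 (limma adjusted p = 0.762). ARAF had 818 and 679 in shTAZ 1 and shTAZ 2, against 849 and 965 in pLKO 1 and pLKO 2 (limma adjusted p = 0.774). The direction of this median turned with single libraries, at -0.12 both without shTAZ 2 and without pLKO 1.

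In the PI3K-AKT arm, the median was 0.02, with 2 of 8 genes above and 2 below both pLKO libraries. PIK3CA, a catalytic subunit of PI3K, had 366 and 364 normalized counts in shTAZ 1 and shTAZ 2, against 223 and 288 in pLKO 1 and pLKO 2 (limma adjusted p = 0.685). The median of the list was -0.02 without shTAZ 2, 0.06 without shTAZ 1 and -0.05 after correction for length and GC content.

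Transcripts that respond to ERK activity had a median log2 fold change of 0.16, and 2 of 16 stood above both pLKO libraries in both shTAZ libraries. Between the controls, the median log2 difference of the same genes was 0.97 for pLKO 2 minus pLKO 1, which is larger. DUSP4, a phosphatase that inactivates ERK, had 538 and 1154 normalized counts in shTAZ 1 and shTAZ 2, against 235 and 514 in pLKO 1 and pLKO 2 (limma adjusted p = 0.598). DUSP6, another ERK phosphatase, had 526 and 1113 in shTAZ 1 and shTAZ 2, against 224 and 568 in pLKO 1 and pLKO 2 (limma adjusted p = 0.656). Both were lowest in pLKO 1, as were EGFR and the 5 ligands. The list's median was 0.62 without pLKO 2 and -0.21 without pLKO 1, which makes its direction depend on the control taken.

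**Figure D4:**
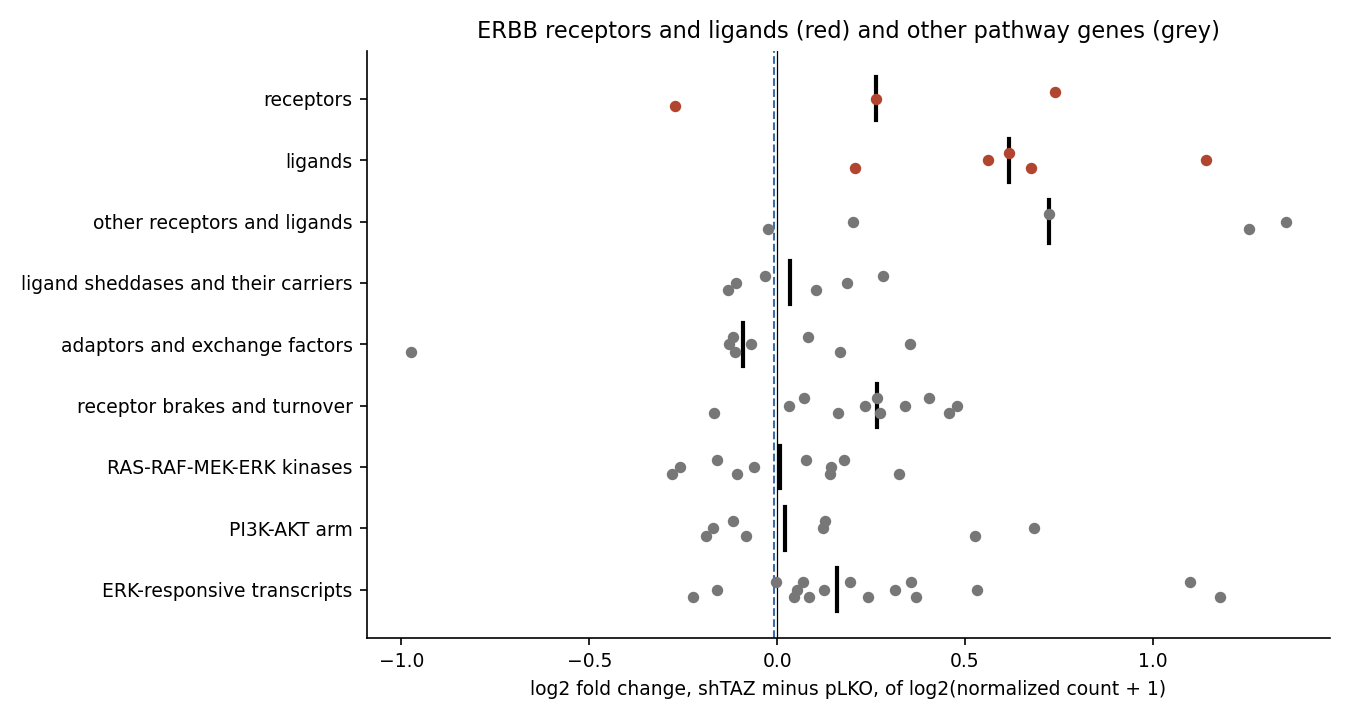
Fitted log2 fold change (shTAZ minus pLKO) of each tested receptor and ligand of the set (red) and of other ERBB pathway genes (grey), with the median of each list as a black bar and that of all genes tested as a dashed line. The 5 ligands lay between 0.21 and 1.14, and the kinases of the RAS-RAF-MEK-ERK cascade between -0.28 and 0.32.

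Among genes with a mean of at least 50 in the set, BTC had the widest range over the 4 libraries, 1.30 on the log2 scale. The 5 genes nearest to it in pattern, by root mean square distance of centred log2 values over the 4 libraries, were MYL9 (0.09), KIAA1462 (0.11), SLCO2A1 (0.12), SLC26A2 (0.13) and MPP7 (0.14), out of 8869 genes. MYL9, a myosin regulatory light chain, had 3972 and 4297 normalized counts in shTAZ 1 and shTAZ 2, against 1884 and 1972 in pLKO 1 and pLKO 2. A likeness over 4 libraries describes these values only.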

How the data were processed

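RNA-seq was made from 0.2 µg of RNA per sample with poly-T capture and a kit that, as described, does not mark strand, per the labels' protocols. The authors deposited, per gene symbol, a normalized count (signal) for each library. Per the file headers, the authors' table also holds a log2 fold change, its error, a Wald score and p-values of a DESeq2 fit. The submitters' processing notes name STAR, DESeq2 and hg19. No source used here names the read counter or annotation. In each library, 100% of values divided by the smallest value above 0 gave a whole number (within 0.001 reads), so reads were recovered. Of 19897 rows, 26 with symbols turned into dates were left out.

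limma (version 3.58.1, R 4.3.3; eBayes with trend, no replicate block) was run on log2(value + 1) of 17737 genes with a value of at least 1 in at least 2 libraries, with Benjamini-Hochberg adjustment over all and a threshold of 0.05. Fold changes are on that scale, which understates changes of low genes. edgeR (quasi-likelihood, version 4.0.16), DESeq2 (version 1.42.0) and limma-voom on recovered reads were alternatives, with another scaling, filter or pseudocount, a replicate block, correction for a spline trend with transcript length and GC content (14580 genes with a length), and leaving out each library. limma, edgeR, DESeq2 and limma-voom without a block were run on simulated counts. Named genes were the set, WWTR1, per list the called or otherwise 2 genes of smallest p, and 5 nearest in pattern to 1 member, and some genes that this rule takes are not reported here. The members and lists were chosen with earlier results of these data known. Lists are described by counts and medians.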

Additional observations from a re-analysis of the deposited data

How the results depend on the processing

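Every alternative but a crossed pairing called 0 of the 8 genes, and no alternative other than leaving out a library turned the direction of any of them. Without each library in turn, the log2 fold change was 0.38 to 1.10 for EGFR, -0.0081 to 0.53 for ERBB2, -0.70 to 0.16 for ERBB3, 0.38 to 0.85 for AREG, -0.16 to 0.58 for EREG, 0.08 to 1.05 for HBEGF, 0.45 to 0.91 for TGFA and 1.03 to 1.25 for BTC. That of WWTR1 was -2.22 to -1.69 and did not pass limma. Over the whole table limma called 2 genes, edgeR 10, DESeq2 68 and limma with a replicate block 7. Without any 1 library limma called 0, with 298 to 1358 genes at an unadjusted p under 0.05. With the replicate block the limma adjusted p of the 8 genes was 0.396 to 0.944. The replicate numbers are not stated to pair libraries, and the deviations of same-numbered libraries correlated at -0.11 across 8869 genes. A crossed replicate block, added after the data were seen, called 241 of 17737 genes. Among them were 1 of the 8 genes of the set (EGFR) and 4 of the 64 tested genes of the pathway lists. List medians without each library were 0.25 to 1.08 for other receptors and ligands and 0.055 to 0.34 for receptor brakes and turnover. They were -0.11 to 0.020 for adaptors and -0.12 to 0.063 for the RAS-RAF-MEK-ERK kinases. For the PI3K-AKT arm they were -0.024 to 0.065, and for ERK-responsive transcripts -0.21 to 0.62. After correction for length and GC content the list medians were 0.10 for brakes and turnover and -0.051 for the PI3K-AKT arm. The cause was not tested. Of the 8 genes, BTC had the fewest reads, 33 to 92 per library.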
